A study of Homo sapiens with 2 samples.

Results

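The comparison described here sets SUM159 cells made resistant to doxorubicin beside SUM159 cells made resistant to paclitaxel, both grown attached to the dish. Its members are all deposited cells of these 2 populations, 7032 doxorubicin-resistant and 5896 paclitaxel-resistant cells, or 12928 of the 30122 cells of the series. SUM159 is an established human line of triple-negative breast cancer with mostly mesenchymal features, labelled as wild type in genotype in every group. Both resistant populations were derived from attached cultures by long exposure to rising drug doses, and the study's methods describe cycles of exposure and drug-free recovery for the doxorubicin line. The 5305 attached cells that never met a drug, called treatment-naïve here, were on the same cartridge and serve as a reference level, and the spheroid cultures of the same 3 populations on a second cartridge are set beside single results. Each resistant population is 1 derived line measured once, so the drug, the history of the line and the culture cannot be told apart. The file of each population was taken from its name, because the labels list the tagged populations without saying which file holds which tag.

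Transcripts of a commercial panel of breast cancer genes were counted per cell as unique molecular identifiers (UMIs, single captured molecules). The doxorubicin-resistant population held 29451390 UMIs with a median of 3814 per cell, and the paclitaxel-resistant population held 23403880 with a median of 3653. No cell barcode was shared between the attached populations. Vimentin (VIM) and the epithelial keratin KRT18 were detected in at least 99.8% of the cells of each attached population, and EPCAM in at most 2.29%. UMIs were summed over each population and scaled to a total of 1000000 (CPM). Each panel gene is read by its own primers, so CPM values are compared between populations and not between genes. Intervals in parentheses are exact 95% intervals that cover counting error only, and no test between populations was possible without replicates. Intervals of folds treat each UMI as an independent draw. They are therefore too narrow where few cells hold most UMIs of a gene.

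Doxorubicin, an anthracycline, poisons topoisomerase II and damages DNA, whereas paclitaxel stabilises microtubules and arrests cells in mitosis. Both are exported by P-glycoprotein, the ATP-driven pump encoded by ABCB1, so resistance to either drug can rest on the same transporter. The panel also covers inflammatory signals, matrix and growth factor receptors, surface antigens and cell cycle genes.

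Of 373 genes in the files, 261 had at least 50 UMIs in either resistant population and were counted as measured. By a size rule that asked for a 2-fold difference and a minimum of 50 UMIs where the gene was higher, 36 genes were higher in doxorubicin-resistant cells (13.8% of measured genes) and 26 were higher in paclitaxel-resistant cells (9.96%), which makes 62 genes or 23.8% in both directions. Most of the panel lay close to equality, with 159 genes, or 60.9%, within 1.5-fold. The median log2 fold of doxorubicin over paclitaxel over all measured genes was 0.15, and gene lists below are read beside that value. Counts of list members past the rule are read beside the 13.8% and 9.96% of all measured genes. Unscaled UMI totals, which carry the larger doxorubicin population, raised every log2 fold by 0.33 and turned the split into 47 genes against 17, so that 73.4% rather than 58.1% of the genes past the rule were higher in doxorubicin-resistant cells. Scaling by the median of ratios gave 32 and 30 genes, or 51.6% higher in doxorubicin-resistant cells. Totals without the 5 most abundant genes gave 32 and 31, or 50.8%, so the excess on the doxorubicin side depends on the scaling. The 5 most abundant genes of each population held 48.5% of doxorubicin and 54.0% of paclitaxel UMIs. A threshold of 3-fold left 25 and 11 genes.

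**Figure D1:**
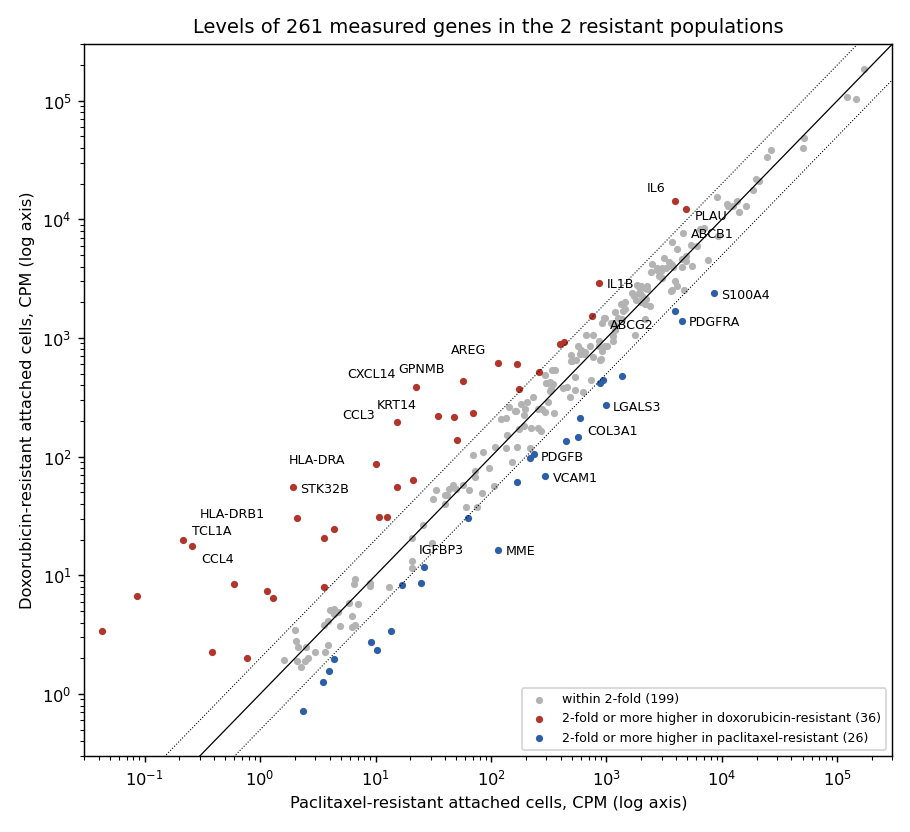
Level of each of the 261 measured genes as CPM in paclitaxel-resistant (x axis) and doxorubicin-resistant (y axis) attached cells, both on log axes, 1 point per gene, with the solid line at equality and dotted lines at 2-fold. The 36 red points above the upper dotted line reach farther from equality, up to 92.5-fold for TCL1A, than the 26 blue points, which reach 7.03-fold for MME.

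The efflux pumps differed less than the size rule asks. ABCB1 (chromosome 7, 87503017 to 87713295 on GRCh38) stood at 7691 CPM in doxorubicin-resistant, 4648 CPM in paclitaxel-resistant and 146 CPM in treatment-naïve cells, so both resistant levels were far above the naive one and the doxorubicin level was 1.65-fold (1.64 to 1.67) the paclitaxel level. The share of cells went the other way, with ABCB1 detected in 88.4% (87.7 to 89.2) of doxorubicin-resistant and 93.1% (92.4 to 93.7) of paclitaxel-resistant cells, and in 75.8% and 80.9% after every cell had been thinned to 1000 UMIs. The higher sum thus came with fewer detecting cells and more transcript in them, at a mean of 36.4 UMIs per detecting cell against 19.8. The top 5% of doxorubicin-resistant cells held 38.9% of all ABCB1 UMIs, and 11.6% of the cells had none, beside 6.94% in the paclitaxel line. ABCG2, a second pump of the same superfamily, was at 1329, 920 and 126 CPM in the same order, 1.45-fold (1.42 to 1.47) higher in doxorubicin-resistant cells, and was detected in 88.2% and 82.3% of the resistant cells. These were the 2 measured members of the list of 4 efflux transporters, and neither passed the rule.

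The size rule does not say how many cells carry a difference, so each gene past it was summed again without the 5% of cells holding most of its UMIs in each population. For 39 of the 62 genes the difference stayed at 2-fold or more with at least 50 UMIs left, for 9 it was carried by few cells, and for 14 too few UMIs were left to say. All 9 genes carried by few cells were higher in doxorubicin-resistant cells, namely TCL1A, CCL4, HLA-DRB1, TNF, CCL3, KRT14, CDKN2A, CCNA1 and CD74. Among the 36 genes higher in doxorubicin-resistant cells 13 were detected in under 5% of them, 14 in 5% to 50% and 9 in 50% or more. The matching counts among the 26 genes higher in paclitaxel-resistant cells were 7, 9 and 10. The median share of detecting cells was 10.7% for the first set and 31.0% for the second, and the top 5% of cells held a median of 80.7% and 48.9% of the UMIs. A gene detected in under 5% of cells has all of its UMIs in the top 5% by construction. The rule of summing again also kept genes such as HLA-DRA, whose trimmed paclitaxel sum fell to a few UMIs. With detection in at least 50% of cells of the higher population added as a condition, chosen after the data had been seen, 9 genes higher in doxorubicin-resistant and 10 higher in paclitaxel-resistant cells remained.

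**Figure D2:**
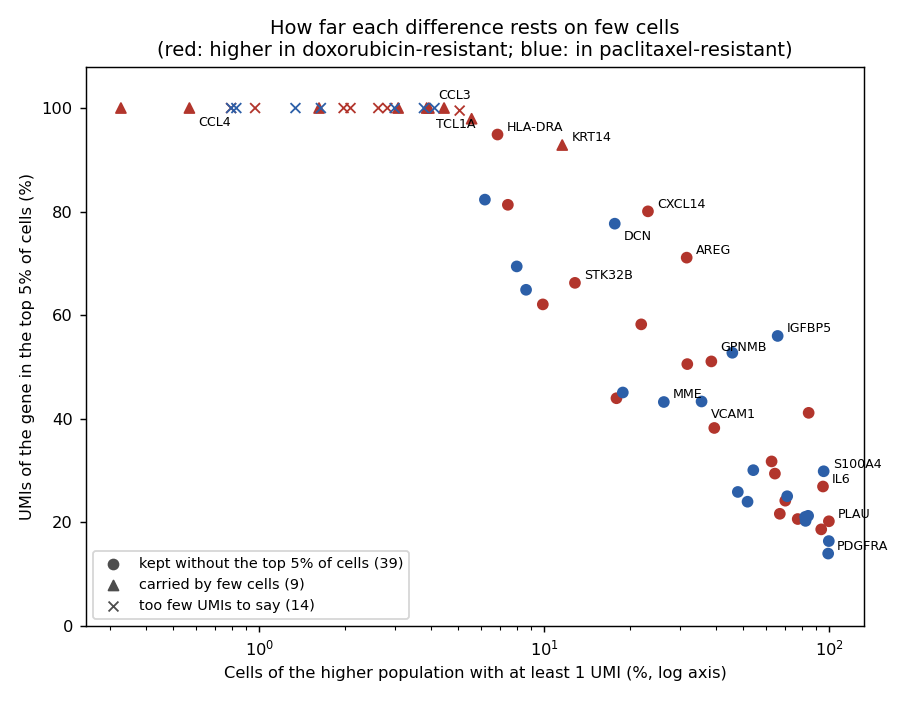
Each of the 62 genes past the size rule by the share of cells of the higher population that detect it (x axis, percent, log axis) and the share of its UMIs in the top 5% of those cells (y axis, percent), with red for genes higher in doxorubicin-resistant and blue for genes higher in paclitaxel-resistant cells. The 9 triangles, genes carried by few cells, are all red and lie at or above 92.9%, whereas PLAU, IL6, S100A4 and PDGFRA lie at 14.0% to 29.9%.

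Of 18 measured inflammatory cytokines and chemokines 7 were higher in doxorubicin-resistant cells, beside 13.8% of all measured genes. The 2 that were higher in paclitaxel-resistant cells were a share near the 9.96% of all measured genes, and the median log2 fold of the list was 0.51. Some of these differences were found in most cells and others in very few. IL6, a cytokine that signals through STAT3 and is common in mesenchymal breast cancer cells, was at 14212 CPM in doxorubicin-resistant, 3947 CPM in paclitaxel-resistant and 2707 CPM in treatment-naïve cells, a difference of 3.60-fold (3.58 to 3.63) between the resistant lines. It was detected in 95.04% of doxorubicin-resistant and 86.7% of paclitaxel-resistant cells, and its fold was 4.26 without the top 5% of cells. IL1B, which encodes the cytokine interleukin-1β, showed the opposite place for the naive cells, with 2906 CPM, 863 CPM and 24049 CPM in the same order. Both resistant lines lay far below the treatment-naïve level, and the doxorubicin line lay 3.37-fold (3.32 to 3.42) above the paclitaxel line. IL1RN, the secreted antagonist of the interleukin-1 receptor, was 5.77-fold (4.59 to 7.34) higher with 20.7 CPM against 3.59 CPM, in 5.05% and 1.29% of cells. IL6, IL1B, IL1RN, SPHK1, DKK1, SFN, CIITA, DCN, FBLN1, MMP11, WISP1 and C10orf54 lie outside the rule by which genes were named, and were chosen after their values had been seen.

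CXCL14, a chemokine made by epithelial and stromal cells, was higher than in the paclitaxel line by 17.1-fold (15.7 to 18.7), with 386 CPM, 22.6 CPM and 5.83 CPM in doxorubicin-resistant, paclitaxel-resistant and treatment-naïve cells. It was detected in 23.1% (22.1 to 24.1) of doxorubicin-resistant and 4.07% (3.58 to 4.61) of paclitaxel-resistant cells, or 11.4% and 1.37% of cells thinned to 1000 UMIs. An even spread of its UMIs by cell depth would have reached 75.4% of doxorubicin-resistant cells. In fact 59 of the 7032 cells held 50% of its UMIs. The chemokines CCL3 and CCL4, which recruit monocytes and lymphocytes, were narrower still. CCL3 was at 194 CPM, 15.3 CPM and 306 CPM, or 12.7-fold (11.4 to 14.2) higher in the doxorubicin than in the paclitaxel line, and 17 cells held 50% of its UMIs. CCL4 had 516 UMIs in doxorubicin-resistant and 6 in paclitaxel-resistant cells, a ratio of CPM of 68.3 (31.2 to 187), and 4 cells held 50% of them. Its log2 fold of 6.09 was 4.80 in cells thinned to 1000 UMIs and 5.29 with the mean of each cell's CPM. The intervals of CCL3 and CCL4 do not cover this concentration in few cells. TNF, the founding cytokine of its family, had 248 and 14 UMIs, a ratio of 14.1 (8.23 to 26.1), in 1.62% and 0.204% of cells. On the other side TSLP, an epithelial cytokine, was 2.08-fold (1.92 to 2.27) higher in paclitaxel-resistant cells with 63.6 CPM against 30.5 CPM, and S100A8, a calcium-binding alarmin, had 243 UMIs there and 69 in the doxorubicin line. The TSLP fold was under 2 with unscaled totals and with mean UMIs per cell.

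Genes of antigen presentation were the list with the highest share past the rule among lists of more than 4 measured members. Of 9 measured members 6 were higher in doxorubicin-resistant cells, beside 13.8% of all measured genes. None passed the rule the other way, and the median log2 fold was 1.59. MHC class II molecules present peptides to CD4+ T cells, are transcribed under the control of the coactivator CIITA, and are assembled on the invariant chain encoded by CD74. HLA-DRA, the α chain of HLA-DR, was at 86.3 CPM in doxorubicin-resistant, 9.998 CPM in paclitaxel-resistant and 13.4 CPM in treatment-naïve cells, a difference of 8.64-fold (7.55 to 9.92) between the resistant lines. HLA-DRB1, its β chain partner, was at 30.4 CPM, 2.09 CPM and 5.23 CPM, or 14.5-fold (10.9 to 19.8) higher, with a log2 fold of 3.86 that was 4.45 after thinning, and since close paralogs exist its reads may include theirs. CD74 was 3.01-fold (2.72 to 3.32) higher with 64.1 CPM against 21.3 CPM, and its treatment-naïve level was 65.3 CPM. HLA-DQB1 had 100 UMIs against 1, a ratio with the wide interval of 13.9 to 3170, and CIITA had 234 against 83, a ratio of 2.24 (1.74 to 2.91). CD274, which encodes the checkpoint ligand PD-L1, was spread more widely, at 233 CPM, 70.5 CPM and 172 CPM, and was detected in 39.5% of doxorubicin-resistant and 17.9% of paclitaxel-resistant cells.

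The class II transcripts were each concentrated in few cells, which overlapped in part between the genes. HLA-DRA was detected in 6.85% (6.27 to 7.47) of doxorubicin-resistant cells, where an even spread would have reached 29.4%. The 121 cells with more than 5 UMIs held 74.2% of all HLA-DRA. Only 3 paclitaxel-resistant and 3 treatment-naïve cells passed 5 UMIs. Of the 121 cells, 25.6% (18.1 to 34.4) also had more than 5 UMIs of HLA-DRB1, compared with 0.0723% of the other 6911 cells, and 33.9% (25.5 to 43.1) had more than 5 of CD74, compared with 0.420%. Conversely, 31 of the 36 cells high in HLA-DRB1, or 86.1%, were high in HLA-DRA, but only 41 of the 70 cells high in CD74, or 58.6%. The high cells were deeper, with a median of 4840 UMIs against 3796. After every cell had been thinned to 1000 UMIs, HLA-DRB1 was found in 26.7% of the 255 cells with HLA-DRA and 0.502% of those without it, and CD74 in 30.2% and 1.43%. CIITA was found in 9.02% and 0.516%, and HLA-DQB1 in 6.27% and 0.103%. ABCB1 was found in 93.4% of them and in 88.3% of the others, beside 36.7% of treatment-naïve cells. None of them had more than 5 UMIs of IGFBP3, which 20.8% of treatment-naïve cells had.

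Promoters of the class II genes share a short module of sequence motifs, one of which is the Y box, an inverted CCAAT sequence bound by the factor NF-Y. The 120 bases before the start of the 3 class II pathway genes with an entry in RefSeq's GRCh38.p14 table are shown because each of these genes was detected more often in cells with HLA-DRA than in cells without it, and HLA-DRA and CIITA are named only. Letters in capitals mark CTGATTGG, searched on both strands, or, where that was absent, CCAAT or its reverse ATTGG, which overlaps with it.
HLA-DRB1, chr6:32589849-32589968, minus strand: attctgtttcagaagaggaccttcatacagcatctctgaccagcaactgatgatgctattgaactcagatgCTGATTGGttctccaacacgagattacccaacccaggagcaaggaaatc
HLA-DQB1, chr6:32666658-32666777, minus strand: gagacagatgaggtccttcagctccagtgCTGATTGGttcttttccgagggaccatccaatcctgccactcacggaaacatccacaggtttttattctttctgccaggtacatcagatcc
CD74, chr5:150412911-150413030, minus strand: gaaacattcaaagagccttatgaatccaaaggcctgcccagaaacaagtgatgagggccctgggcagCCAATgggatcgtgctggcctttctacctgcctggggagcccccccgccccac
The 8 letters began 49 bases before the start in HLA-DRB1 and 91 bases before it in HLA-DQB1, and CCAAT began 53 bases before it in CD74. On either strand CTGATTGG was in 2.81% and CCAAT in 20.4% of the 35116 promoter windows of that length in the table, so the shorter match is common. Such a match describes the letters and not a site in use.

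Other genes high in few doxorubicin-resistant cells overlapped with the class II cells to different degrees. Of the 121 cells high in HLA-DRA, 50.4% (41.2 to 59.6) had more than 5 UMIs of AREG, the EGFR ligand amphiregulin, compared with 8.36% of the other cells, and 24.8% had more than 5 of CXCL14, compared with 4.43%. IL1B was high in 76.0% of the 121 cells and 39.7% of the others. In thinned cells AREG was found in 50.6% of those with HLA-DRA and 15.3% of those without it. The thinned shares were 84.7% and 60.2% for IL1B, and 24.7% and 10.9% for CXCL14, a smaller contrast than without thinning. KRT14 was high in 1.65% (0.201 to 5.84) of the 121 cells and 2.20% of the others, close to each other, and GPNMB in 2.48% (0.514 to 7.07) and 9.04%. KRT14, a keratin of basal epithelium, was at 219 CPM in doxorubicin-resistant, 34.6 CPM in paclitaxel-resistant and 3611 CPM in treatment-naïve cells, with 31 doxorubicin-resistant cells holding 50% of its UMIs and a fold that dropped from 6.34 (5.89 to 6.83) to 1.68 without the top 5% of cells. Of the 154 cells with more than 5 UMIs of KRT14, 55.2% (47.0 to 63.2) were also high in AREG and 92.9% in IL1B, compared with 8.05% and 39.2% of the other cells. The cells high in KRT14 were deeper, with a median of 5047 UMIs against 3788, and after thinning AREG was found in 43.5% of the cells with KRT14 and 15.0% of those without it, and IL1B in 77.0% and 60.2%. These are genes that treatment-naïve cells express strongly. ABCB1 was detected in 90.3% of the 154 cells. None had more than 5 UMIs of IGFBP3, while at least 1 UMI of it was found in 11.0% of them, 6.88% of the other cells and 46.8% of treatment-naïve cells. The last share is over all treatment-naïve cells and not those high in KRT14, and carry-over between the pooled populations was not tested. Of the 14 cells high in CCL4, 10 were high in CCL3. Of the 628 cells high in GPNMB, 2.07% (1.11 to 3.51) were high in AREG compared with 9.78% of the other cells, and 10.03% (7.80 to 12.7) were high in CXCL14 compared with 4.26%. For CCL3, CCL4 and IL1B the shares of the 628 cells, 1.27%, 0.159% and 41.4%, were close to the 1.45%, 0.203% and 40.2% of the others. The cells high in GPNMB were deeper, with a median of 4354.5 UMIs against 3758. After thinning, CXCL14 was found in 13.98% of the cells with GPNMB and 10.71% of those without it, a smaller contrast than without thinning. The thinned shares were 7.73% and 18.87% for AREG, and 57.6% and 62.04% for IL1B, whose small difference changed direction.

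**Figure D3:**
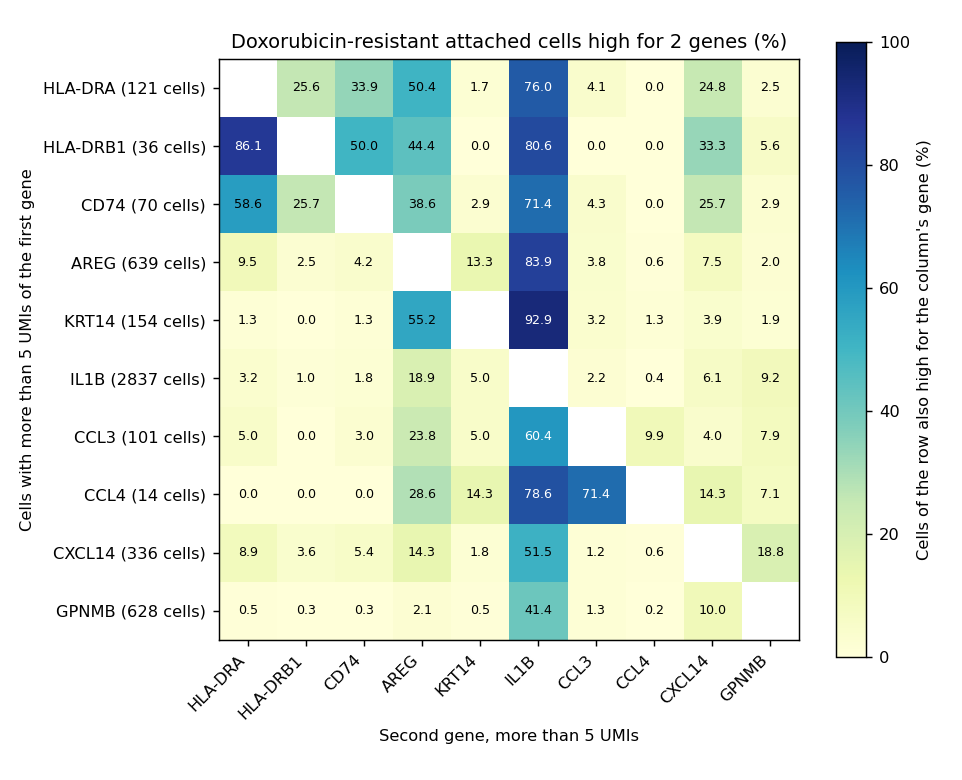
Share of doxorubicin-resistant attached cells with more than 5 UMIs of the row's gene (number of cells in parentheses) that also have more than 5 UMIs of the column's gene, in percent, with the scale from 0 to 100. HLA-DRA, HLA-DRB1 and CD74 fall in overlapping cells, as do KRT14, AREG and IL1B and, with 71.4%, CCL4 and CCL3. These sets are not separate, since AREG and IL1B are also high in 50.4% and 76.0% of the cells high in HLA-DRA. IL1B is high in 40.3% of all doxorubicin-resistant cells and in 78.6% of those high in CCL4, so its overlap is not particular to KRT14 and AREG. Of the cells high in AREG, 13.3% are high in KRT14. In the row of GPNMB the highest values are 41.4% for IL1B and 10.03% for CXCL14.

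Levels relative to the treatment-naïve cells on the same cartridge ranged widely. Among 89 genes above 1000 CPM in treatment-naïve cells the lowest paclitaxel-resistant level relative to them was that of IGFBP3, which binds insulin-like growth factors, at 20.6 CPM in both lines and 2823 CPM in treatment-naïve cells, or 0.730% of the naive level in each. KRT14 in paclitaxel-resistant cells was at 0.957% of the naive level, and in doxorubicin-resistant cells at 6.07%. AREG was at 4.48% and 24.2%, and CCL3 at 5.00% and 63.5%. The part of carry-over between the pooled populations in these levels was not tested.

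Basal epithelial genes as a list leaned to the doxorubicin line in attached cells. There 4 of 9 measured members passed the rule, beside 13.8% of all measured genes, none passed it the other way, and the median log2 fold was 0.79. In spheroids the median of the list was 0.30, near the 0.28 over all measured genes there. AREG was at 614 CPM in doxorubicin-resistant, 114 CPM in paclitaxel-resistant and 2543 CPM in treatment-naïve cells, 5.39-fold (5.17 to 5.61) higher in the doxorubicin than in the paclitaxel line, although the shares of detecting cells, 31.6% and 25.7%, were close. The difference lay in the upper tail, since 639 doxorubicin-resistant and 51 paclitaxel-resistant cells had more than 5 UMIs. CDH3, the basal cadherin P-cadherin, was 2.89-fold (2.51 to 3.34) higher at 31.3 CPM against 10.8 CPM, with 130 CPM in treatment-naïve cells. SFN, the 14-3-3σ cell cycle regulator, was at the threshold with 2.00-fold (1.94 to 2.06) and fell under it in thinned cells and several other settings. TP73, a p53 family member, was 1.72-fold (1.65 to 1.80) higher, and ITGA6 and KRT17 were within 1.5-fold. Luminal genes had no member past the rule among 15 measured, with a median log2 fold of -0.19 that turned to 0.14 with unscaled totals. FOXA1, a luminal pioneer factor, was at 117 CPM and 135 CPM.

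GPNMB, a glycoprotein of lysosomes and the cell surface, had the largest fold among genes detected in more doxorubicin-resistant cells than CXCL14. It was at 438 CPM in doxorubicin-resistant, 57.2 CPM in paclitaxel-resistant and 4.15 CPM in treatment-naïve cells, 7.66-fold (7.24 to 8.11) higher in the doxorubicin than in the paclitaxel line. Detection was 38.6% (37.4 to 39.7) and 10.6% (9.86 to 11.4), with 1.60% in treatment-naïve cells. STK32B, a serine/threonine kinase, was higher by 28.7-fold (21.4 to 39.6) with 55.2 CPM, 1.92 CPM and 1.07 CPM in the same order, and was found at low level in 12.8% of doxorubicin-resistant and 0.746% of paclitaxel-resistant cells. Its log2 fold of 4.84 was 5.57 after thinning to 1000 UMIs per cell. TCL1A, a coactivator of AKT known from lymphoid cells, had 582 UMIs in doxorubicin-resistant, 5 in paclitaxel-resistant and 4 in treatment-naïve cells, a ratio of 92.5 (39.4 to 286) between the resistant lines. Its log2 fold of 6.53 was 5.77 after thinning. Its 272 detecting cells had a mean of only 2.14 UMIs, and 50% of the UMIs were in 58 cells. ALCAM, an adhesion molecule of the immunoglobulin family, was 3.58-fold (3.46 to 3.71) higher and reached 77.5% of doxorubicin-resistant and 41.6% of paclitaxel-resistant cells. ESM1, an endothelial proteoglycan, was 4.54-fold (4.26 to 4.84) higher, in 31.8% and 11.2% of cells. PLAU, the urokinase protease, was detected in at least 98.9% of the cells of each line and was 2.52-fold (2.50 to 2.54) higher at 12283 CPM against 4876 CPM. DKK1, a secreted WNT antagonist, was 2.44-fold (2.14 to 2.79) higher in 9.88% and 4.39% of cells.

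Markers of immune cells were sparse in both lines. CD244 had 196 and 2 UMIs in the doxorubicin and paclitaxel lines and CD3D 216 and 27, whereas CD3E had 7 and 0 and CD8A none in either. Of the 11 listed T and NK markers in the files 3 were measured, and all 11 summed to 20.2 CPM and 12.4 CPM. PTPRC, the leukocyte antigen CD45, went the other way with 81 and 213 UMIs, 3.31-fold (2.55 to 4.33) higher in the paclitaxel line, and so did the integrin ITGAX with 100 and 320. The 6 B and plasma cell markers in the files summed to 92.1 CPM and 82.0 CPM. In treatment-naïve cells the same B and plasma cell markers summed to 1765 CPM, the T and NK markers to 8.87 CPM and the listed myeloid markers to 716 CPM. Myeloid markers summed to 567 CPM and 245 CPM, to which GPNMB gave 438 CPM and 57.2 CPM and CD14 122 CPM and 167 CPM, with CD163 at 2 and 6 UMIs and LYZ at 19 and 13.

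**Figure D4:**
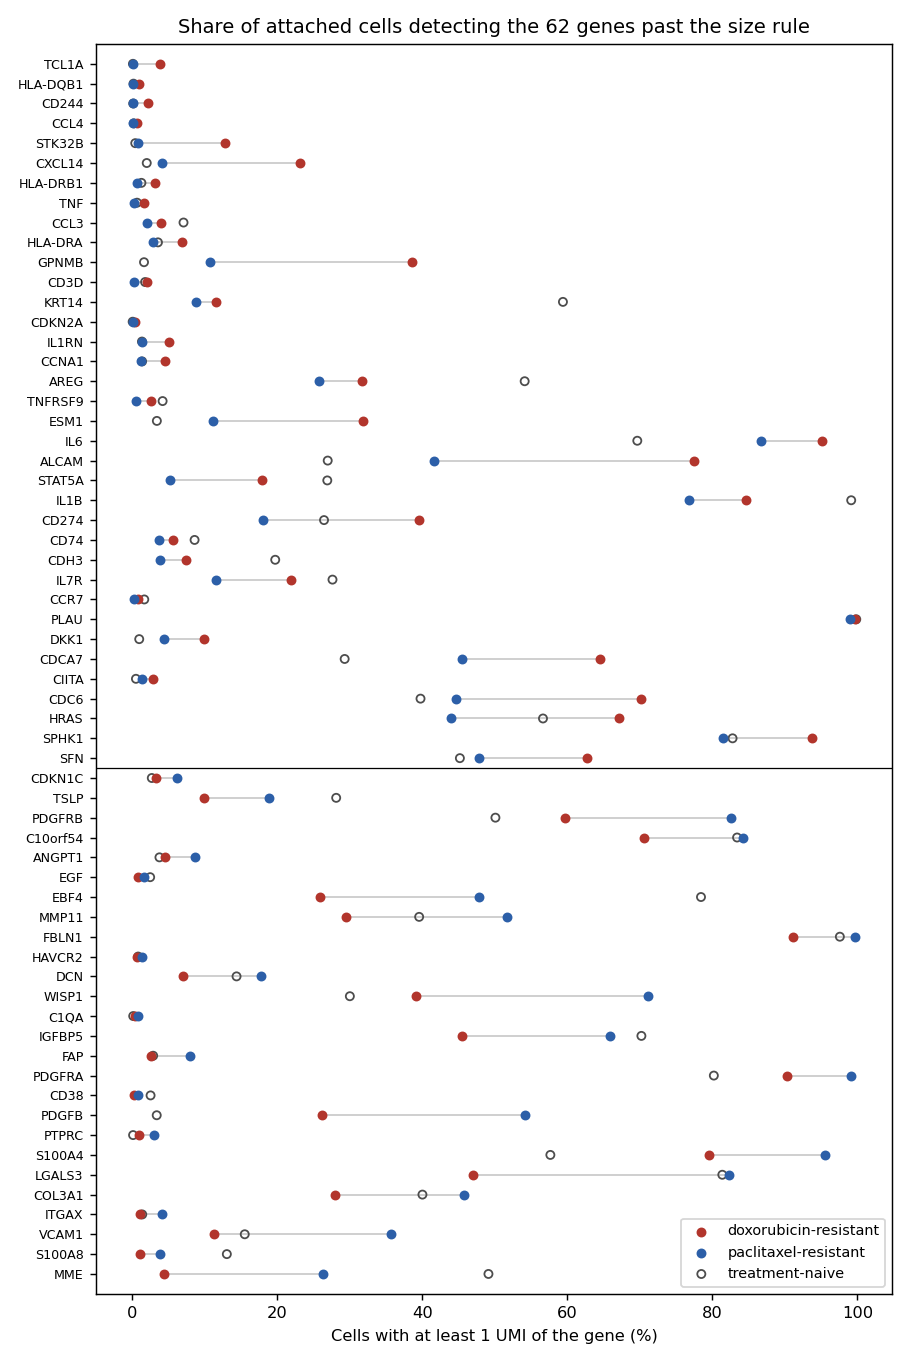
Share of attached cells with at least 1 UMI (x axis, percent) of each of the 62 genes past the size rule, ordered by fold, in doxorubicin-resistant (red), paclitaxel-resistant (blue) and treatment-naïve cells (open circles), with the line separating genes higher in the doxorubicin from those higher in the paclitaxel line. Large differences in share are seen for ALCAM, GPNMB and CXCL14 above the line and for LGALS3, WISP1, PDGFB and VCAM1 below it, while the first 4 rows stay under 4% in every population.

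Among the genes higher in paclitaxel-resistant cells were a platelet-derived growth factor, its receptors and some matrix genes. All 4 listed PDGF genes were measured. Of them 3 were higher in paclitaxel-resistant cells, beside 9.96% of all measured genes, and the median log2 fold was -1.38. PDGFB, the B chain of the ligand, was at 445 CPM in paclitaxel-resistant, 135 CPM in doxorubicin-resistant and 9.52 CPM in treatment-naïve cells, 3.30-fold (3.18 to 3.42) higher in the paclitaxel than in the doxorubicin line, and was found in 54.1% (52.8 to 55.4) and 26.2% (25.2 to 27.2) of their cells. Its receptors moved the same way. PDGFRA was at 4475 CPM, 1390 CPM and 1311 CPM in the same order, 3.22-fold (3.18 to 3.26) higher, and was detected in 99.1% of paclitaxel-resistant and 90.3% of doxorubicin-resistant cells. PDGFRB was at 884 CPM, 420 CPM and 463 CPM, 2.11-fold (2.06 to 2.15) higher, a fold that fell under 2 with unscaled totals and with mean UMIs per cell. PDGFA, the other classical ligand chain, was at 492 CPM and 643 CPM, or 1.31-fold (1.28 to 1.34) higher in the doxorubicin line.

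Of 25 measured mesenchymal and matrix genes 7 were higher in paclitaxel-resistant cells, beside 9.96% of all measured genes. Only 1, PLAU, was higher in doxorubicin-resistant cells, beside 13.8%, and the median log2 fold was -0.34. S100A4, a calcium-binding protein linked to motility, was at 8571 CPM in paclitaxel-resistant, 2381 CPM in doxorubicin-resistant and 1276 CPM in treatment-naïve cells, 3.60-fold (3.57 to 3.63) higher between the resistant lines. COL3A1, a fibrillar collagen, was 3.87-fold (3.74 to 4.01) higher at 565 CPM against 146 CPM, but both were under the 1965 CPM of treatment-naïve cells. WISP1, a matricellular protein of the CCN family now named CCN4, was 2.77-fold (2.69 to 2.85) higher and found in 71.2% and 39.2% of cells. FBLN1, a basement membrane glycoprotein, was 2.31-fold (2.28 to 2.33) higher in 99.6% and 91.1% of cells. FAP, a serine protease of activated fibroblasts, was higher by 2.88-fold (2.48 to 3.35) but in 8.01% of cells only. The proteoglycan DCN and the protease MMP11 completed the list. With unscaled totals FBLN1 and MMP11 fell under 2-fold, as did C10orf54, ANGPT1 and EGF. COL1A1, at 2378 CPM and 1874 CPM, and VIM, at 121147 CPM and 107603 CPM, did not pass the rule.

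MME, the surface peptidase CD10, was the largest difference in favour of the paclitaxel line. It was at 116 CPM in paclitaxel-resistant, 16.5 CPM in doxorubicin-resistant and 345 CPM in treatment-naïve cells, 7.03-fold (6.38 to 7.76) higher between the resistant lines, in 26.3% (25.1 to 27.4), 4.39% (3.93 to 4.90) and 49.1% of their cells. VCAM1, an adhesion receptor for integrins, was at 296 CPM, 68.4 CPM and 118 CPM in the same order, 4.34-fold (4.12 to 4.56) higher, in 35.6% of paclitaxel-resistant and 11.3% of doxorubicin-resistant cells. LGALS3, a galectin that binds surface glycans, was at 991 CPM, 270 CPM and 1280 CPM, 3.67-fold (3.58 to 3.77) higher, in 82.3% and 46.9% of cells. For LGALS3 and MME the paclitaxel line thus lay nearer to the treatment-naïve level than the doxorubicin line did. IGFBP5, an insulin-like growth factor binding protein, was 2.82-fold (2.76 to 2.87) higher, at 1353 CPM, 480 CPM and 7458 CPM. The fold of IGFBP7 in the same direction was 1.68 (1.67 to 1.70), and IGFBP3 had a ratio of 1.00 (0.890 to 1.13). C10orf54, now named VSIR and encoding the checkpoint protein VISTA, was at 933 CPM and 439 CPM.

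**Figure D5:**
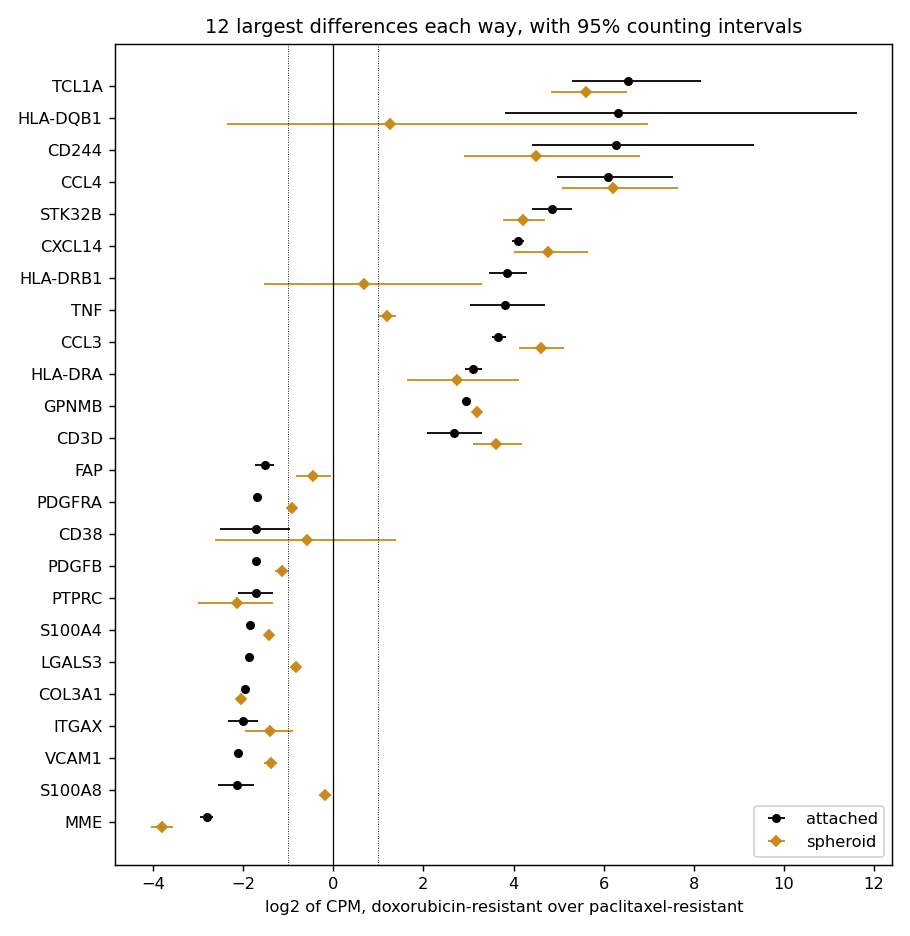
The log2 of the CPM ratio of doxorubicin-resistant over paclitaxel-resistant cells (x axis) for the 12 largest differences in each direction in attached cells (black circles) and for the same genes in spheroids (orange diamonds), with bars for exact 95% counting intervals and dotted lines at 2-fold. The spheroid values lie on the same side of 0 as the attached ones for all 24 genes, with intervals that cross 0 for HLA-DQB1, HLA-DRB1 and CD38.

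Among cell cycle genes those of G1/S leaned to the doxorubicin line, mostly by less than 2-fold. Among 14 measured genes of G1/S and DNA replication 13 had a log2 fold above 0, and the median was 0.53 beside 0.15 over all measured genes, while the 2 members past the rule were a share near that of the panel. CDCA7, a MYC-responsive chromatin gene, and CDC6, which loads the replicative helicase, were 2.27-fold (2.22 to 2.32) and 2.16-fold (2.11 to 2.21) higher in doxorubicin-resistant cells. CCNE2, a G1/S cyclin, was 1.51-fold (1.45 to 1.57) higher. Among 18 genes of G2/M and mitosis only CCNA1, a cyclin otherwise typical of the germ line, passed. It had 717 and 103 UMIs and was detected in 4.45% and 1.22% of cells. The median of that list was 0.20, near the 0.15 over all measured genes. MKI67, the proliferation marker, was at 251 CPM in the doxorubicin and 276 CPM in the paclitaxel line. Nucleotide enzymes had a median log2 fold of 0.57 with none of 5 past the rule, and TYMS, the thymidylate synthase, was at 6023 CPM and 5360 CPM, both far above the 794 CPM of treatment-naïve cells. CDKN2A, the locus of the p16 inhibitor, had 66 and 9 UMIs, with 50% of the former in 5 cells.

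The remaining lists are given beside the 13.8% and 9.96% of all measured genes that were higher in the doxorubicin and paclitaxel lines. Their counts rest on few genes each. Among 16 kinases and growth signalling genes 3 were higher in the doxorubicin line, STK32B, HRAS and SPHK1, and 1, the ligand EGF with 58 and 102 UMIs, was lower, with a median of 0.26. HRAS, a small GTPase, was 2.12-fold (2.05 to 2.20) and SPHK1, the sphingosine kinase, 2.04-fold (2.00 to 2.07) higher. HRAS, SPHK1 and SFN, like CDC6, fell under 2-fold with the median of ratios and with totals that left out the 5 most abundant genes. None of 10 detoxification and metabolic enzymes, 10 p53 targets and apoptosis genes or 4 DNA repair genes passed, with medians of 0.15, 0.11 and 0.23, of which the first and second turned slightly below 0 with totals that left out the 5 most abundant genes. GSTP1, the glutathione transferase, was at 33536 CPM and 24366 CPM. Among 13 members of the TNF family and costimulation list TNFRSF9 and CD274 were higher in the doxorubicin line and HAVCR2 lower, with a median of -0.13 that turned to 0.20 with unscaled totals. Of 6 angiogenic factors ESM1 was higher in the doxorubicin line and ANGPT1 and PDGFB in the paclitaxel line, with a median of 0.03 that turned to -0.11 with the median of ratios. Of 11 adhesion genes ALCAM and CDH3 were higher in the doxorubicin line and VCAM1 in the paclitaxel line. Of 5 stem cell markers ALCAM was higher and MME lower, and CD24 and CD44 were at 1.73-fold (1.72 to 1.75) and 1.22-fold (1.22 to 1.23).

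The treatment-naïve level did not place the differences on 1 side. Of the 36 genes higher in the doxorubicin line the naive level was below both resistant levels for 12, between them for 13 and above both for 11. The counts for the 26 genes higher in the paclitaxel line were 7, 8 and 11. CXCL14, GPNMB, STK32B, TCL1A and IL6 belonged to the first kind, and so did PDGFB, PDGFRA and S100A4 on the paclitaxel side. KRT14, AREG, IL1B, CCL3 and CDH3, and on the other side IGFBP5, COL3A1, MME and LGALS3, were lower in both resistant lines than in treatment-naïve cells, so that the line with the higher value was the one with the smaller drop.

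The spheroids of the same populations, called treated in the sample labels and resistant in the series design, were on a separate cartridge and shallower, with medians of 2340 UMIs per doxorubicin and 1629 per paclitaxel cell. There 32 of 251 measured genes were higher in the doxorubicin line (12.7%) and 12 in the paclitaxel line (4.78%), at a median log2 fold of 0.28. Of the 36 genes higher in attached doxorubicin-resistant cells, 31 were measured in spheroids, 29 had the same direction and 20 passed the rule the same way. Of the 26 on the paclitaxel side, 23 were measured, 18 had the same direction and 8 passed. CXCL14 was 27.4-fold (16.2 to 50.5) higher in doxorubicin-resistant spheroids, GPNMB 9.11-fold (8.55 to 9.70), CCL3 24.2-fold (17.4 to 34.8) and ABCB1 1.79-fold (1.76 to 1.81). MME was 13.9-fold (11.8 to 16.6) higher in paclitaxel-resistant spheroids. IL6 was 2.85-fold (2.80 to 2.91) higher in the doxorubicin line. AREG, 1.23-fold (1.14 to 1.33) higher in the paclitaxel line, and IGFBP5, with 1.82 (1.68 to 1.97) of doxorubicin over paclitaxel, had opposite directions in the cultures without passing the rule in spheroids.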

How the data were processed

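The authors deposited 1 matrix of counts (UMIs per gene and cell) for each population of a BD Rhapsody targeted experiment. The matrices came from a commercial cloud platform, which assigns reads to barcodes and adjusts UMI counts by a method named RSEC. The submitters' notes name hg38, and filters on cells before deposit are not given in the sources used here. All deposited barcodes were kept, although the 18233 attached ones exceed the roughly 15000 cells that the labels say were pooled. No doublet caller was run, and cells of high depth were left out in an alternative.

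UMIs were summed per population and gene and scaled to 1000000. Folds are ratios of CPM with exact conditional binomial intervals, and shares have Clopper-Pearson intervals. A gene counted as measured with 50 UMIs in either line and passed the size rule at 2-fold. It was carried by few cells if the difference did not persist without the top 5% of cells in each population and either 50 UMIs were left or no more than 50% of the cells expected from an even spread detected it. For thinned shares 1000 UMIs were drawn without replacement per cell, and the 1 attached cell below that depth was left out. The scripts were tested on simulated data. Python 3.11.15 was used with numpy 2.4.6, scipy 1.17.1, pandas 2.3.3 and matplotlib 3.10.9.

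Named genes were the 12 largest differences in each direction, genes carried by few cells, efflux transporters, the 2 measured members at either end of each of 22 gene lists and genes the study singles out, and some of them are not reported here. The members, lists and rules were chosen with earlier results of these data known. Gene symbols were matched to RefSeq for 367 of 373 genes, and coordinates are those of GRCh38.p14.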

Additional observations from a re-analysis of the deposited data

Results flagged for a closer look

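C1QA, a subunit of complement C1q, passed the 2-fold rule in opposite directions in the cultures. In attached cells its log2 fold of doxorubicin over paclitaxel was -1.48, from 37 and 82 UMIs, and in spheroids it was 1.66, from 399 and 101 UMIs. The difference between the cultures was not tested, since neither had replicates. In attached cells it was found in 0.341% of doxorubicin-resistant and 0.797% of paclitaxel-resistant cells, and fewer than 50 UMIs were left after thinning to 1000 UMIs per cell.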

How the results depend on the processing

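No paired analysis was possible because no population was replicated and no result comes from a test. For the same reason no replicate could be left out. Of the 62 genes past the size rule 40 stayed past it under all 8 other ways of scaling or choosing cells, and none changed direction. The paclitaxel side of the count moved most, from 26 genes to 17 with unscaled totals, 40 with no minimum of UMIs and 11 at 3-fold. The median of ratios gave 32 and 30 genes, and totals without the 5 most abundant genes 32 and 31. Thinning to 1000 UMIs took 12 genes out, among them HLA-DQB1, CD244, CD38 and C1QA, for which fewer than 50 UMIs were left. HLA-DQB1 rests on 1 UMI in the paclitaxel line, and its log2 fold of 6.31 was 2.86 with thinning. Thinning also moved CD3D from 2.67 to 4.60 and CCNA1 from 2.47 to 3.14 on the log2 scale. Restricting both lines to cells with ABCB1, added after the data had been seen, gave 35 and 26 genes. With the top 2% of cells trimmed, 5 rather than 9 genes were carried by few cells and 9 rather than 14 stayed undetermined. Asking for detection in 50% of cells left 19 of the 39 genes whose difference persisted. Medians close to 0 changed sign in 5 of 22 lists. With totals without the 5 most abundant genes they became -0.0142 for detoxification enzymes, -0.0551 for p53 targets and -0.13 for angiogenic factors. The median of ratios gave -0.0373 for p53 targets and -0.11 for angiogenic factors. Unscaled totals gave 0.14 for luminal genes and 0.20 for the TNF family. The cause was not tested beyond the scaling itself.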
